A study of Homo sapiens with 6 samples.

Results

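The p53 pathway and its target genes were examined in MCF10A cells that had received miR-221 and miR-222 mimic. The list holds 33 genes, chosen as regulators of p53 or as genes that p53 is known to switch on. Probe sets were taken as members where the array's annotation gave the symbol of a listed gene. By that rule 78 of 54613 probe sets belonged to the list, and 31 of its 33 genes were measured, out of 19775 genes in all. BTG2 and FDXR were not analysed here. MCF10A is an established cell line of human mammary epithelium that does not form tumours. It carries a deletion of the CDKN2A locus. All cells came from this line, and the groups differed in what was transfected, which was either miR-221 and miR-222 together (the mimic group) or a control microRNA (the control group). Each group had 3 biological replicates, each on its own array. A value is the log2 intensity of a probe set, a group of probes for the same transcript.

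p53 is a transcription factor that is kept scarce in unstressed cells, mainly because the ubiquitin ligase MDM2 marks it for destruction and MDM4, a relative of MDM2, blocks its activity. When DNA is damaged or a cell is otherwise stressed, p53 accumulates and switches on genes that halt division, repair DNA, change metabolism or start cell death. MDM2 is itself such a gene, so the pathway restrains itself. MicroRNAs act on another level, by pairing with messenger RNAs and lowering their amount or translation, and MDM2 and TP53BP2 are among the reported targets of miR-221 and miR-222.

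The mature microRNAs miR-221-3p and miR-222-3p are shown because their shared seed decides which messenger RNAs they can pair with. The sample titles name miR-221 and miR-222 without a strand, so that the mimic held these strands is assumed. They are written 5′ to 3′ from RefSeq (GRCh38.p14), with the seed, bases 2 to 8, in capitals.
hsa-miR-221-3p: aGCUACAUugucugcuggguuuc
hsa-miR-222-3p: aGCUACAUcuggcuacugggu
Both mature sequences lie on the minus strand of chromosome X, at chrX:45746180-45746202 and chrX:45747036-45747056. Both sequences carry the seed GCUACAU and are the same over their first 8 bases. Where the probe sets of the members lie relative to any pairing site was not analysed here.

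The DNA that p53 itself binds is shown for the 4 measured members in which it was found close to a transcription start. A p53 site consists of a pair of half-sites of 10 bases, and the p53 consensus half-site was searched in RefSeq promoter windows of 300 bases (GRCh38.p14), from 250 bases before to 50 after each start. Because that half-site reads the same on both strands, 1 search covered both. A pair could differ from the consensus at up to 2 letters and could be separated by up to 13 bases, and the C and G of each core were required. Windows were given for 27 of the 33 listed genes. The sequences below are on the plus strand, with the 4-letter core of each half-site in capitals.
DDB2: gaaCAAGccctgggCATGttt
FAS: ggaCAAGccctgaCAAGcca
MDM2: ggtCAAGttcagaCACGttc
AEN: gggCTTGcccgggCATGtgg
The DDB2 pair lies at chr11:47214979-47214999, from base 6 after the start, and differs from the consensus at 0 letters. The FAS pair lies at chr10:88991309-88991328, 122 bases before a start, and the AEN pair at chr15:88621306-88621325, 34 bases before the start. The MDM2 pair lies at chr12:68808923-68808942, 94 bases before a start within the gene. FAS, MDM2 and AEN each differ at 2 letters. A pair was present in 6 of 40 member windows (15%, 5 genes, FDXR included) and in 2.93% of all 35116 windows. The list was made of p53 targets, so this share is a description, and a match does not show that p53 was bound. DDB2 and FAS rose in the mimic arrays, MDM2 fell, and AEN did not pass the test, as described below.

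Values and arrays were checked before the comparison. Medians of the 6 arrays ran from 7.59 to 7.66. All 10 measured mammary epithelial markers lay above the median of the arrays. Their mean log2 level ran from 11.25 to 11.35 over the mimic arrays and from 12.21 to 12.27 over the control arrays, with 9 of the 10 lower and 1 higher in the mimic. Of the other cell type markers, 1 of 8 fibroblast genes was higher and 2 lower. The mean log2 level of these 8 was 8.29 to 8.41 in the mimic and 8.46 to 8.48 in the control arrays. Of 6 endothelial genes 1 was lower (7.73 to 7.89 against 7.98 to 8.02). Of 4 blood cell genes 1 was higher and 1 lower (8.06 to 8.14 against 8.26 to 8.28). The median log2 changes were -0.0033 for the fibroblast, 0.039 for the endothelial and 0.12 for the blood cell list. The called genes, named after their values were seen, were DCN (1.66), LUM (-1.06), FAP (-1.60), KDR (-1.48), CD14 (-1.15) and ITGAM (0.21). Over all genes 14.1% were called higher and 16.3% lower. The 3′ minus 5′ signal of ACTB ran from 0.33 to 0.39 in the mimic and from 0.29 to 0.36 in the control arrays on the log2 scale. That of GAPDH ran from 0.0241 to 0.0422 and from -0.0462 to 0.0234, so that its groups lay apart by a small margin. The part of these differences in the results below was not tested. CDKN2A, deleted in this line, had a mean of 8.14 over the mimic and of 8.05 over the control arrays at its brightest probe set, and no detection calls were used, so a value of this size does not by itself show that a gene is expressed.

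The comparison asked which genes of the p53 pathway differed in RNA level between the mimic and control groups. The members moved in both directions and by modest amounts: 9 of the 31 rose, 13 fell and 9 did not pass (limma, adjusted p under 0.05 over all probe sets). PLK2, a stress-induced kinase gene, fell most, by 1.90 on the log2 scale, and TP53I3, an oxidoreductase gene induced by p53, rose most, by 1.41. MDM2 fell and MDM4 rose. XPC, DDB2 and GADD45A, genes of DNA repair, rose, and RRM2B and POLH of the same role did not pass. TIGAR and STEAP3, genes of metabolism, fell. The RNA came from whole cultures, so fewer cells that express a gene and less of its RNA per cell cannot be told apart.

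The share of members called was 71.0%, against 30.4% of all genes. Without the 40% dimmest probe sets all 31 members were still measured and 24 were called, and the share over all genes was 41.1%. Higher calls made up 14.1% and lower calls 16.3% of all genes. The median log2 change over the members was -0.045, and 0.034 over all genes. The median size of the change, without its sign, was 0.31 for the members and 0.12 for all genes. The mimic arrays lay entirely on one side of the control arrays for 26 members, 12 above and 14 below, against 45.6% of all genes. A change of at least 1.5-fold was found for 5 of the 31 members, against 8.71% of all genes. These were TP53I3 and SESN1 among those that rose, and PLK2, MDM2 and SPATA18 among those that fell. The 45.6%, the 8.71% and the median size of 0.12 include the dim genes, where the list has none of the 40% dimmest probe sets. The same without the dim probe sets was not computed. The counts of this list are given without a test of the list.

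**Figure D1:**
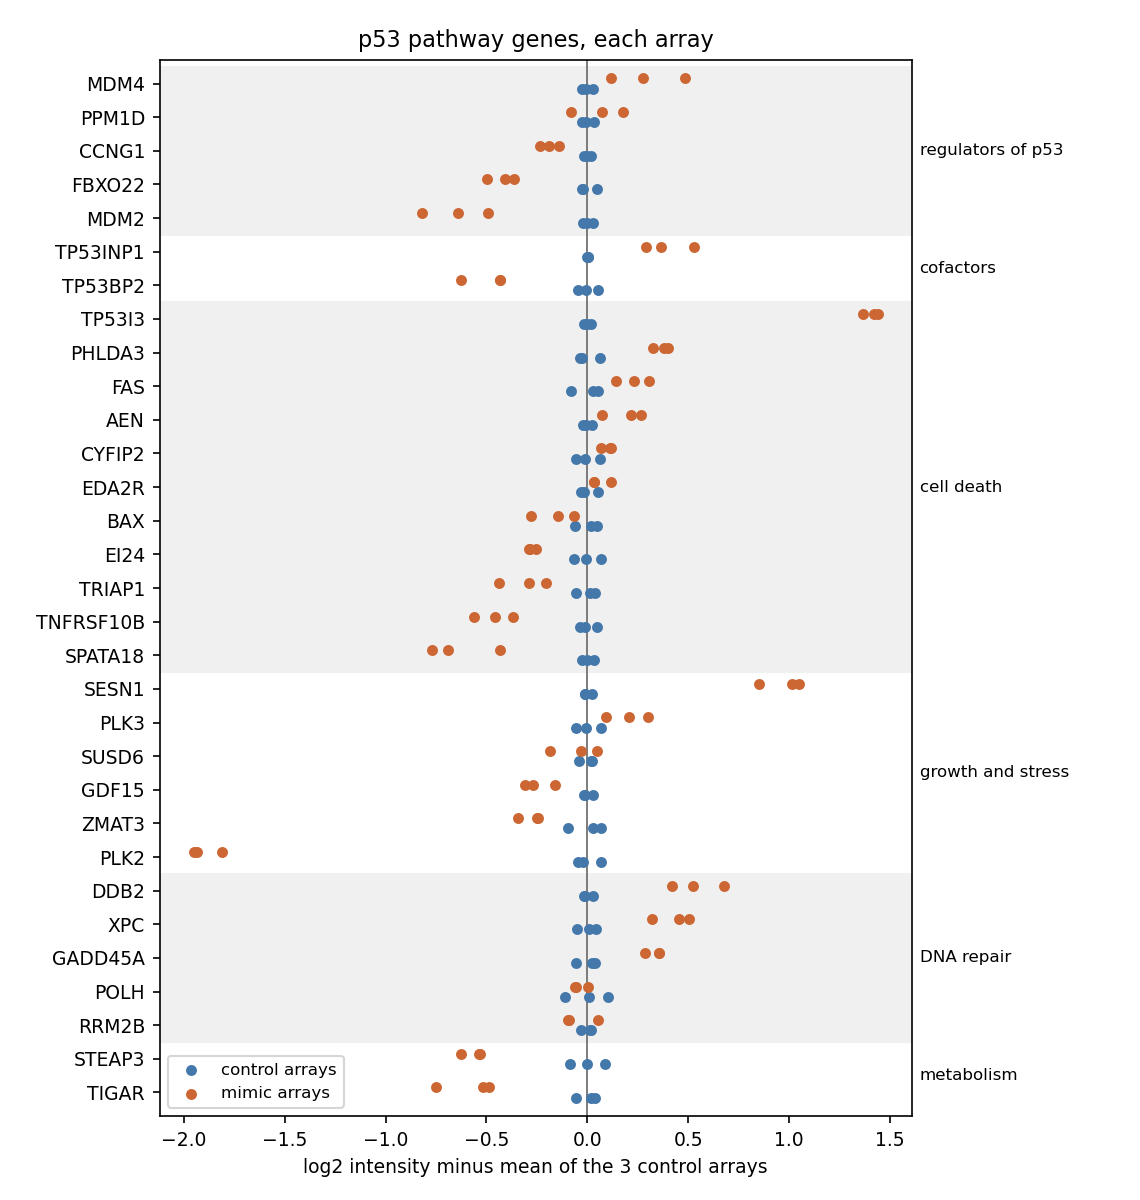
Log2 intensity of the 31 measured genes on each array minus the mean of the 3 control arrays, grouped by role. Orange points are mimic arrays and blue points control arrays. TP53I3 and SESN1 stand to the right of their controls, PLK2 to the left, and for 26 genes the groups do not overlap.

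The regulators of p53 came first. MDM2, the ubiquitin ligase of p53, read 9.86, 10.04 and 10.19 in the mimic arrays and 10.71, 10.68 and 10.66 in the control arrays (probe set 225160_x_at, log2 intensity). Every mimic array lay below every control array, and the spread was wider in the mimic group. The mean was 10.03 ± 0.17 against 10.68 ± 0.02 (SD, n = 3 each), which is 1.57-fold higher in the control (adjusted p = 0.000127). MDM2 had 10 probe sets. The 4 called were all lower, with log2 changes from -0.82 to -0.42, and the other 6, with changes from -0.23 to 0.051, did not pass. With all 10 averaged the change was -0.27 (adjusted p = 0.0077). The probe set used has the suffix x_at, which marks probes that can bind several transcripts. The brightest probe set without this suffix has the suffix s_at, for probes shared by transcripts, and changed by -0.82. The brightest probe set with neither suffix changed by -0.42 (adjusted p = 0.00493).

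MDM4, which blocks the activity of p53 without marking it for destruction, read 10.11, 10.26 and 10.47 in the mimic and 10.02, 9.96 and 9.98 in the control arrays (225740_x_at). It rose by 0.29 ± 0.09 on the log2 scale (SE, adjusted p = 0.0299). That call was lost without any array other than mimic replicate 1, with adjusted p-values from 0.0661 without control replicate 3 to 0.0929 without control replicate 2 and changes from 0.20 to 0.31. It was also lost with arrays centred on their medians (adjusted p = 0.0578) and with the 6 MDM4 probe sets averaged (0.15, adjusted p = 0.104). Of these probe sets 2 were higher and 0 lower. MDM2 and MDM4 thus moved in opposite directions, and the MDM4 call was lost under 7 of 15 alternatives where the MDM2 call was lost under 0.

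FBXO22, a ubiquitin ligase subunit that acts on p53, fell by 0.42 ± 0.06 (SE, adjusted p = 0.00047). The fall was seen at 3 of its 5 probe sets, and the other 2, which were dimmer, changed by -0.013 and 0.37 without passing. With all 5 averaged the change was -0.21 (adjusted p = 0.0278). CCNG1, a cyclin induced by p53 that takes part in MDM2 control, averaged 13.49 ± 0.05 against 13.68 ± 0.02 (SD, n = 3 each). It fell by 0.19 (adjusted p = 0.0396), a call lost without any array other than mimic replicate 3 (adjusted p from 0.0735 without mimic replicate 1 to 0.12 without mimic replicate 2) and after an intensity trend was removed (adjusted p = 0.123). PPM1D, a phosphatase gene that shuts the p53 response down, read 9.12, 9.28 and 9.38 in the mimic and 9.23, 9.19 and 9.17 in the control arrays. Its groups overlapped, and the change of 0.056 (95% interval -0.11 to 0.22) did not pass.

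The 2 cofactors moved apart. TP53BP2 encodes ASPP2, which binds p53 and favours its action on cell death genes. It read 9.54, 9.74 and 9.74 in the mimic and 10.22, 10.12 and 10.16 in the control arrays (203120_at), and so lay below its controls on each mimic array. The difference was 1.41-fold, higher in the control (adjusted p = 0.000345), at the only TP53BP2 probe set. TP53INP1, a p53-induced gene that helps p53 activation, read 10.87, 10.94 and 11.10 against 10.57, 10.58 and 10.58 (225912_at). It rose 1.31-fold (adjusted p = 0.00163), and its other 2 probe sets, at 0.10 and 0.054, did not pass. With all 3 averaged the change was 0.18.

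**Figure D2:**
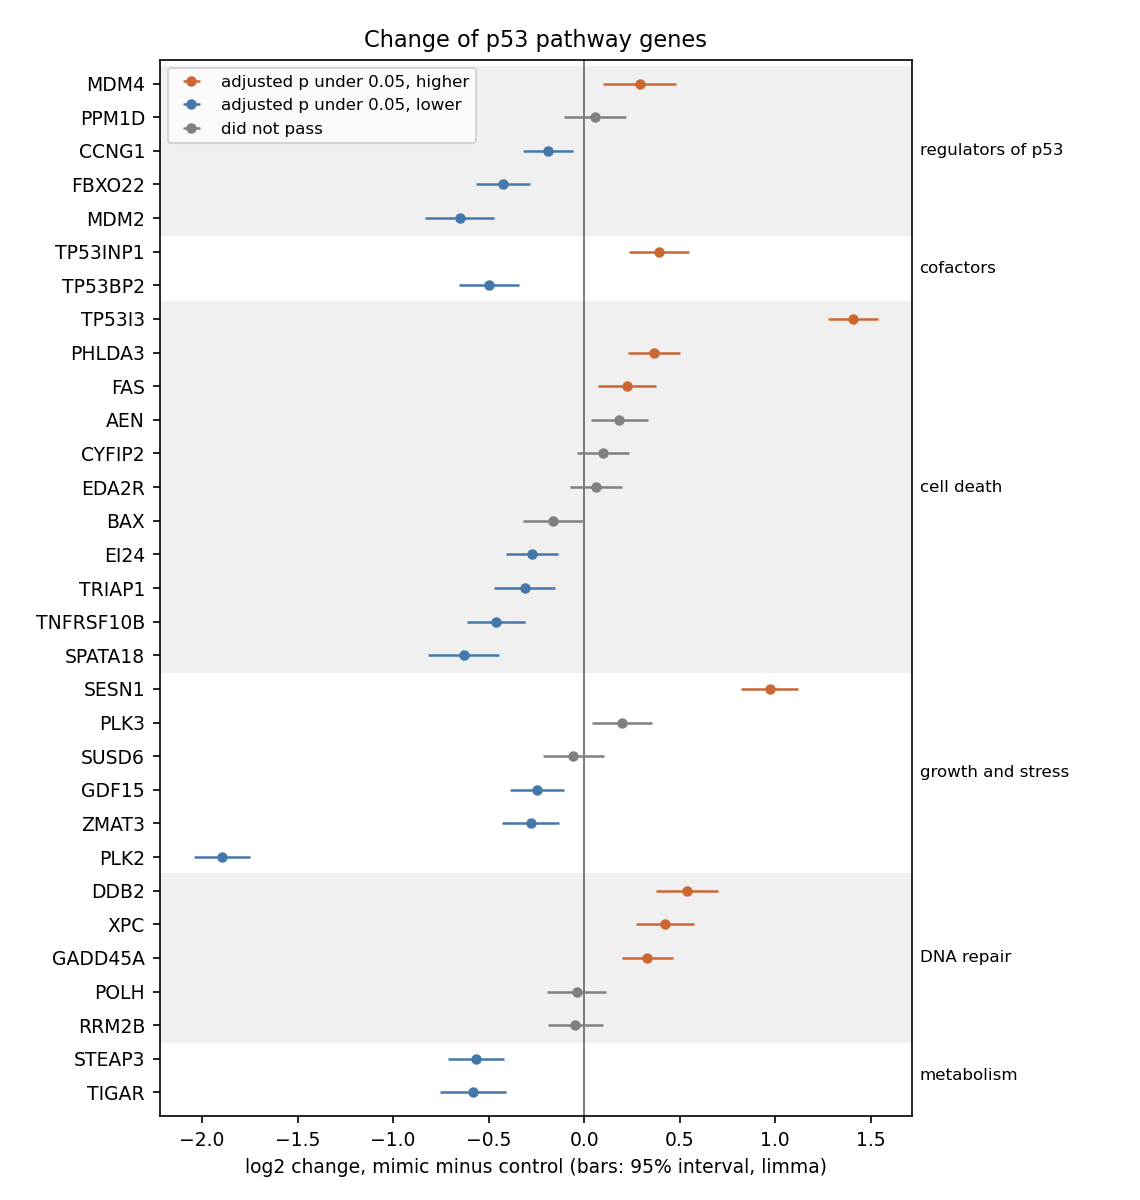
Log2 change, mimic minus control, of the 31 measured genes, with 95% intervals from limma, grouped by role. Orange genes rose and blue genes fell at an adjusted p under 0.05, and grey genes did not pass. The intervals of MDM2 and TP53BP2 lie below 0, and 3 of the 5 DNA repair genes lie above 0.

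Of the 11 genes of cell death, 3 rose, 4 fell and 4 did not pass, where 30.4% of all genes were called. TP53I3, also called PIG3, encodes a quinone oxidoreductase linked to oxidative stress. It read 12.68, 12.75 and 12.73 in the mimic and 11.30, 11.31 and 11.33 in the control arrays (210609_s_at). The groups were tight and far apart, with a 2.65-fold rise (adjusted p = 2.91e-08). PHLDA3, which restrains AKT signalling, rose 1.29-fold (adjusted p = 0.00105), from 10.57 ± 0.06 to 10.93 ± 0.04 (SD, n = 3 each). Its second probe set, at 0.16, did not pass.

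The death receptor genes FAS and TNFRSF10B, which encode receptors for FAS ligand and for TRAIL, moved in opposite directions. FAS read 11.50, 11.58 and 11.66 in the mimic and 11.41, 11.38 and 11.27 in the control arrays (204780_s_at). The groups lay close without overlap, and the rise was 1.17-fold (adjusted p = 0.0327), with 4 of 5 probe sets higher. The FAS call was lost without any array other than mimic replicate 1 (adjusted p from 0.056 without control replicate 1 to 0.105 without control replicate 3) and with arrays centred on their medians (adjusted p = 0.0868). TNFRSF10B read 12.27, 12.38 and 12.47 against 12.83, 12.88 and 12.80 (209295_at). It was 1.38-fold higher in the control (adjusted p = 0.000409). Its 3 bright probe sets fell by 0.44 to 0.51, the other, a dim one, changed by 0.20 without passing, and with all averaged the change was -0.30. EDA2R, a further death receptor gene, changed by 0.063 (95% interval -0.073 to 0.20) and did not pass. Mimic and control means of EDA2R were 8.41 and 8.35, near those of the deleted CDKN2A (8.14 and 8.05). Whether EDA2R was expressed is therefore not shown.

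The other genes of this role that fell act at mitochondria or the endoplasmic reticulum. SPATA18, also called MIEAP, which takes part in the quality control of mitochondria, read 9.16, 9.25 and 9.50 in the mimic and 9.97, 9.93 and 9.91 in the control arrays (229331_at). All mimic arrays were lower, the difference was 1.55-fold (adjusted p = 0.000217), and both SPATA18 probe sets fell. TRIAP1, a small mitochondrial protein gene that protects from cell death, fell by 0.31, and EI24, an endoplasmic reticulum protein gene, fell by 0.27 (adjusted p = 0.00837 and 0.00696). The second EI24 probe set fell too, by 0.36. BAX, which permeabilises the mitochondrial membrane, changed by -0.16 and did not pass (adjusted p = 0.131), nor did its second probe set. AEN, a nuclease gene, changed by 0.18 (95% interval 0.035 to 0.33, adjusted p = 0.0721) and CYFIP2, which regulates the actin skeleton, by 0.098 (adjusted p = 0.293). AEN was called as higher under 5 alternatives, among them the one without the 40% dimmest probe sets (adjusted p = 0.0449) and the one without mimic replicate 1 (adjusted p = 0.0167). The dimmer of the 2 CYFIP2 probe sets rose by 0.32 (adjusted p = 0.00272), and their average rose too (0.21, adjusted p = 0.0175).

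Of 6 measured genes of growth arrest and stress signalling, 1 rose, 3 fell and 2 did not pass. The share called over all genes was 30.4%. PLK2, a kinase of the polo family, read 9.13, 9.15 and 9.27 in the mimic and 11.15, 11.06 and 11.03 in the control arrays (201939_at). It stood far below its controls on each mimic array, 3.72-fold higher in the control (adjusted p = 8.83e-09). SESN1, a sestrin gene that restrains mTORC1 signalling under stress, read 11.89, 12.05 and 12.09 against 11.06, 11.03 and 11.03 (218346_s_at). It was 1.96-fold higher in the mimic (adjusted p = 1.45e-06), so the largest fall and the second largest rise of the whole list both lay in this role.

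ZMAT3, an RNA-binding protein gene, fell on all 5 of its probe sets, by 0.18 to 0.45, which made it the member with the most probe sets called in 1 direction. GDF15, a secreted stress cytokine gene, fell by 0.25 at 1 of its 3 probe sets (adjusted p = 0.0153), again with the suffix x_at. The other 2 GDF15 probe sets were dim and changed by -0.069 and 0.049 without passing, and the call was lost without control replicate 1 (adjusted p = 0.0654). It was also lost after quantile normalization (0.0507), after an intensity trend was removed (0.0636) and with the probe sets averaged (0.259). PLK3, a relative of PLK2, read 9.15, 9.37 and 9.27 against 9.004, 9.05 and 9.13 and did not pass (0.20, adjusted p = 0.0668). It was called as higher under 5 alternatives, among them quantile normalization (adjusted p = 0.0137) and the one without mimic replicate 1 (adjusted p = 0.023). A further PLK3 probe set fell by 0.40 (adjusted p = 0.00637), and the average of all 3 was -0.060. SUSD6, a transmembrane protein gene, changed by -0.057 (95% interval -0.22 to 0.10) and did not pass.

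Of 5 DNA repair genes, 3 rose, 0 fell and 2 did not pass. Over all genes 30.4% were called, and 41.1% without the 40% dimmest probe sets. DDB2 and XPC encode the proteins that find damaged bases for nucleotide excision repair. DDB2 read 9.73, 9.84 and 9.99 in the mimic and 9.30, 9.34 and 9.30 in the control arrays (203409_at), a 1.45-fold rise (adjusted p = 0.000224). XPC read 10.84, 10.97 and 11.02 against 10.56, 10.53 and 10.47 (209375_at), a 1.34-fold rise (adjusted p = 0.000746). GADD45A, which takes part in repair and growth arrest, rose 1.26-fold (adjusted p = 0.00196), from 11.60 ± 0.05 to 11.94 ± 0.04 (SD, n = 3 each). For all 3 genes every mimic array was higher than every control array. RRM2B, the p53-induced subunit of ribonucleotide reductase, changed by -0.045 (95% interval -0.19 to 0.098). POLH, a polymerase gene for bypass of ultraviolet damage, changed by -0.038 (95% interval -0.19 to 0.12), and 0 of its 6 probe sets were called. Mimic and control means of POLH were 8.53 and 8.57 at its brightest probe set, not far above the deleted CDKN2A (8.14 and 8.05). Whether POLH was expressed is therefore not shown.

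Both measured genes of metabolism fell, where 16.3% of all genes were called lower. TIGAR, which lowers glycolytic flux, read 9.62, 9.85 and 9.88 in the mimic and 10.39, 10.41 and 10.31 in the control arrays (219099_at). STEAP3, a metalloreductase gene of iron uptake, read 9.995, 9.99 and 9.90 against 10.53, 10.61 and 10.44 (218424_s_at). The groups lay apart for both genes, with log2 changes of -0.58 for TIGAR (adjusted p = 0.000202) and -0.56 for STEAP3 (adjusted p = 8.3e-05), and both STEAP3 probe sets fell.

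Probe sets of 1 gene did not always give the same result. Of the 78 member probe sets, 14 were called higher, 28 lower and 36 not at all, where 24.8% of all probe sets were called, 11.6% higher and 13.1% lower. Of the 17 members with more than 1 probe set, 0 had probe sets called in both directions. MDM2 and ZMAT3 gave 9 of the 28 lower calls, so probe sets are not independent counts of genes. For 3 members the probe set used has the suffix x_at and for 9 the suffix s_at, which marks probes shared by transcripts.

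**Figure D3:**
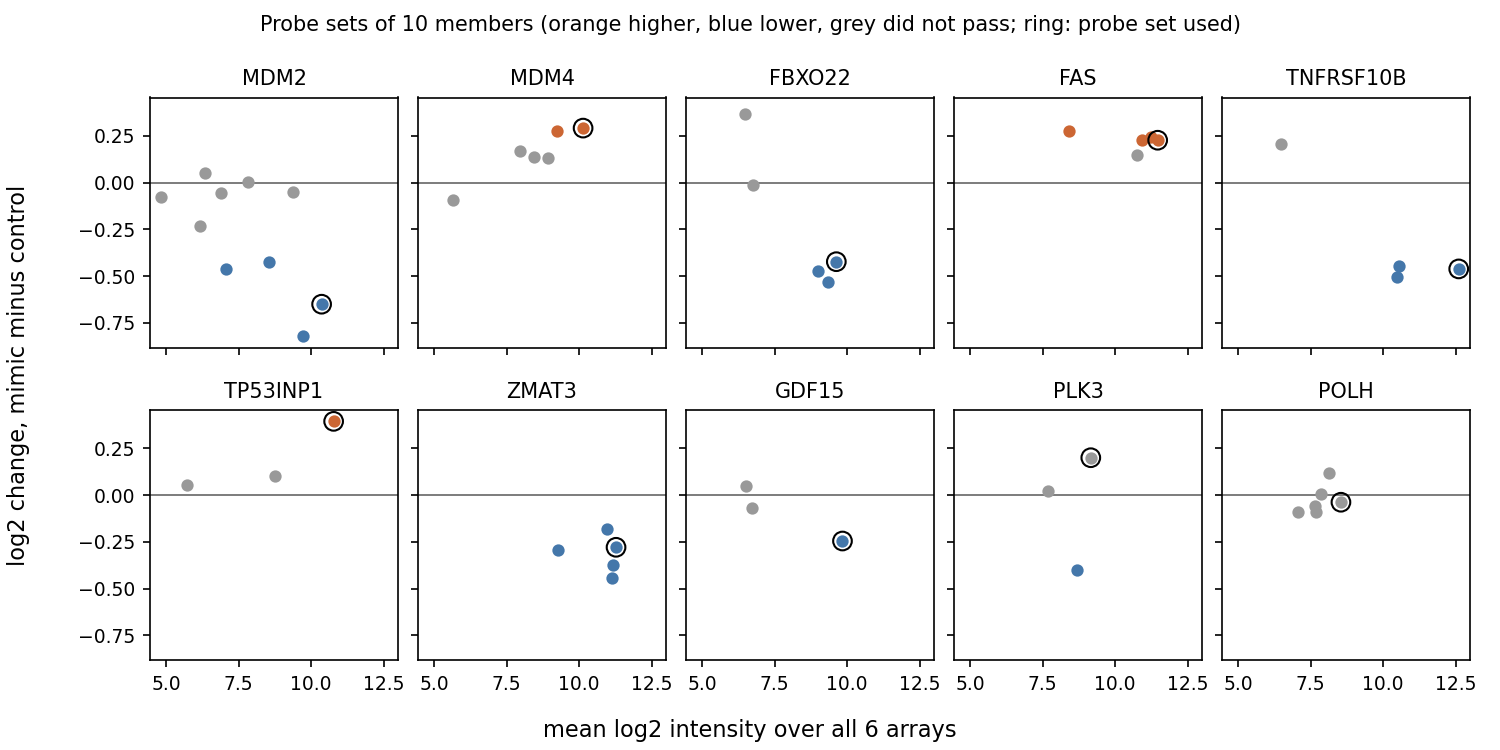
Log2 change, mimic minus control, against the mean log2 intensity of each probe set of 10 members. Orange probe sets rose, blue fell, grey did not pass, and a ring marks the probe set used for the gene. The 5 ZMAT3 probe sets all lie below 0, while 4 of the 10 MDM2 probe sets are blue and the others lie nearer to 0.

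Other genes of the pathway were read from lists that do not overlap the members. Among 20 measured relatives and regulators of p53, 1 rose, 7 fell and 12 did not pass, with a median log2 change of -0.031. Over all genes 30.4% were called, 14.1% higher and 16.3% lower, and 41.1% without the 40% dimmest probe sets. All 20 lay above the median of the arrays, so the larger share is the nearer comparison. CHEK1, the checkpoint kinase of replication stress, fell by 1.11, RCHY1, a ubiquitin ligase of p53, by 0.85, PRKDC, a DNA repair kinase, by 0.77, and HIPK2, a kinase that phosphorylates p53, by 0.64. A further CHEK1 probe set rose by 0.40, and 2 of the 10 HIPK2 probe sets rose while 6 fell. The gene that rose was the acetyltransferase gene KAT5, by 0.23, named after its value was seen. TP63 was not analysed here.

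Among 25 other p53 targets, 6 rose, 8 fell and 11 did not pass, with a median of -0.039. The shares over all genes were 14.1% higher and 16.3% lower. CDKN1A, the p53-induced inhibitor of cyclin-dependent kinases, read 12.59, 12.73 and 12.73 in the mimic and 12.34, 12.30 and 12.37 in the control arrays, a rise of 0.34 (adjusted p = 0.00205). KITLG, a growth factor gene, rose by 1.34 and PMAIP1, which encodes the death protein NOXA, by 0.997. TGFA, an EGF receptor ligand gene, fell by 0.84 and SFN, a 14-3-3 protein gene of cell cycle arrest, by 0.81. Like the members, these targets moved both ways.

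All 16 genes of a list that p53 is known to repress indirectly, through CDKN1A and the DREAM complex, fell, with a median of -1.90. Of all genes, 16.3% were called lower. The log2 change was -2.81 for CDK1, the mitotic kinase, and -2.36 for KIF23, a kinesin of cell division. It was -2.32 for CCNB2 and -2.27 for CCNB1, the cyclins that activate CDK1. For CDK1 3 of 4 probe sets were called lower, for KIF23 1 of 2, for CCNB2 1 of 3 and for CCNB1 2 of 2. The mimic means of these 4 genes ran from 6.55 for KIF23 to 8.46 for CCNB1. The deleted CDKN2A read 8.14 in the mimic, so the sizes of these falls are uncertain. The genes of this list are also genes of dividing cells, and whether p53 had a part in their fall was not tested. The 3 lists are described by their counts, without a test.

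**Figure D4:**
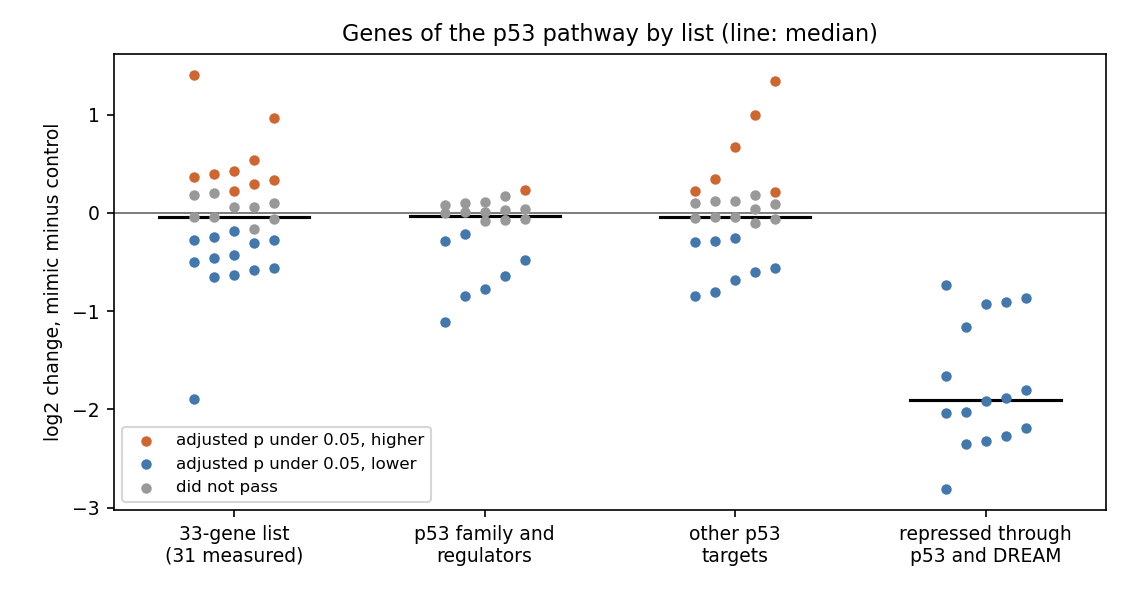
Log2 change, mimic minus control, of the 31 measured genes of the 33-gene list and of 3 other lists of the p53 pathway. Orange genes rose, blue genes fell, grey genes did not pass, and black lines are medians. The medians of the first 3 lists lie near 0, and the list of genes repressed through p53 and DREAM lies wholly below 0 (median -1.90).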

How the data were processed

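Per the submitters' processing notes, the deposited values are log2 intensities normalized by the authors with RMA, which corrects background, makes the arrays' distributions alike and gives 1 value per probe set. No RMA version is stated. RMA would hide a change in total messenger RNA and compresses dim differences. That the scale is log2 follows from the range of the values. Time, dose and the control's sequence are not stated in the sources used.

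There were 54675 probe sets, of which 62 control probe sets were left out. Symbols came from the platform annotation (41091 tested probe sets with 1 gene, 1801 with several, 11721 with none), and a gene was read at its probe set with the highest mean. All 6 arrays were fitted with limma 3.58.1 (lmFit, eBayes) in R 4.3.3, with Benjamini-Hochberg adjustment over all tested probe sets, a threshold of 0.05 and a two-sided test. The fit was tested on simulated data. Errors of differences are limma's standard errors. Precision is limited by having 3 arrays per group. The members, lists, settings and tests were chosen with earlier results of these data known. By the rule for named genes, all members, up to 4 called genes of each other list with the largest change, and TP63 and CDKN1A are named; a further gene of that rule is not reported here. The alternatives were a filter on dim probe sets, quantile normalization, median centring, array weights, eBayes with trend and robust, a replicate block, each array left out, removing an intensity trend (loess, span 0.3), averaging probe sets, preferring probe sets without suffix, and stricter thresholds. Replicate numbers are not said to pair the arrays. With 3 arrays per group the values cannot exclude a pairing, and the main fit used none.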

Additional observations from a re-analysis of the deposited data

How the results depend on the processing

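Of the 22 members called, 18 kept their direction and their call under all 15 alternatives that give a value per gene; the exceptions were MDM4, FAS, CCNG1 and GDF15, and the cause was not tested. Of 465 values of members under alternatives, 420 kept direction and side of the threshold, 25 lost a call, 11 gained one and 9 changed sign. The changed signs were those of SUSD6 (0.015 after quantile normalization, 0.0086 without mimic replicate 1, 0.011 after removal of the intensity trend), RRM2B (0.026 and 0.027 under the first and last of these), PPM1D (-0.0043 without mimic replicate 3, up to 0.13 with another array left out), POLH (0.013 without control replicate 3, down to -0.095), GDF15 (0.049 at its probe set without suffix) and PLK3 (-0.060 with probe sets averaged). The members' median was 0.015 after quantile normalization, 0.011 after removal of the intensity trend, and from -0.094 to -0.022 with each array left out. With each array left out, 7 to 11 members rose and 11 to 13 fell, 35 to 44 member probe sets and 10266 to 13314 of all probe sets were called. With a 1.5-fold minimum, by construction fewer passed: 2 members rose, 3 fell, and 7 member probe sets and 3590 of all probe sets were called. With the replicate number as a block, 8 members rose and 12 fell. FAS (adjusted p = 0.0538) and CCNG1 (0.0714) then lost their calls. Same-numbered arrays deviated from their group means with correlations of -0.11, 0.084 and 0.082, and 2 of 6 arrays correlated best with their own number. With 3 arrays per group these correlations cannot decide whether the numbers are pairs. The main fit used no pairing because the numbers are not said to pair the arrays.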

Other observations

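Mimic replicate 1 gave the lowest of the 3 mimic values for 26 of the 31 members (83.9%), against 47.0% of all genes. All 31 members lay above the 40% dimmest probe sets, and the share among other genes of like brightness was not computed. The difference is therefore not shown to be particular to the members. Mimic replicate 1 also had the smallest array weight, 0.41, where mimic replicate 2 had 3.17. Without it, 11 members rose and 12 fell. The range over the 3 mimic arrays was wider than that over the 3 control arrays for 24 of the 31 members, with a median range of 0.18 against 0.085 on the log2 scale, and for 11909 of all 19775 genes, with a median of 0.15 against 0.12.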
